A study of Homo sapiens with 21 samples.

Results

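The comparison described here sets 2 non-targeting siRNAs against each other in senescent human fibroblasts. Its members are 6 of the 21 libraries of the study, 3 that received the siRNA called NT3 and 3 that received the siRNA called NT4. A gene was tested when its normalised count was 10 or more in 3 or more of those 6 libraries, which kept 11271 of the 16383 genes listed. The cells were IMR90, a long-used fibroblast line from human lung with wild-type genotype per the labels, grown in DMEM with 10% FBS. Both groups had been irradiated to induce senescence, were transfected at 5 nM with DharmaFECT on days 4 and 7 after irradiation, and were harvested on day 10. RNA was extracted with TRIzol and captured by its poly(A) tail. The sample titles call the siRNAs Non targeting#3 and Non targeting#4, while the series text lists 2 senescent controls as NT1 and NT2. The other irradiated groups carried siRNA to cyclin D1 (CCND1), to CDK4, to CDK6 or to both kinases, and a proliferating group had no treatment. All samples come from 1 cell line, and the labels do not say that libraries of a group came from separate cultures, so the p-values measure the spread between these libraries, which may be technical.

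Senescent cells have left the cell cycle for good but stay metabolically active. Many of them release a mixture of cytokines, chemokines, proteases and growth factors, the senescence-associated secretory phenotype (SASP), whose cytokine genes are driven to a large part by NF-kB and upheld by IL-1 signalling. A non-targeting siRNA is a control duplex designed to have no intended target transcript. It still passes through transfection and loading into Argonaute, it can act on transcripts that match its seed, and duplex RNA can be read by innate sensors that lead to interferon signalling. The siRNA sequences are not used here, so no match to a seed was searched.

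Cells given NT4 had lower RNA levels of inflammatory cytokines and chemokines than cells given NT3, and higher levels of a group of matrix genes. The IL6 transcript of NT4 cells stood at 22.9% of the NT3 mean, CXCL8 at 33.7% and CXCL1 at 17.7%. These genes encode a cytokine and neutrophil-attracting chemokines of the SASP. LAMA2, which encodes the laminin alpha 2 chain of basement membranes, stood at 4.97 times its NT3 mean. Of the 11271 genes, 976 passed an adjusted p of 0.05 (limma on log2 of the value plus 1, Benjamini-Hochberg adjustment over all genes tested), which is 8.66%. They are the genes said below to have risen, fallen or passed, and the sizes given for them are log2 differences, NT4 minus NT3. Of these, 516 were higher in NT4 (4.58% of genes tested) and 460 lower (4.08%), and 72 and 82 of them differed by more than 1 on the log2 scale. The median difference over all genes was -0.0092, and the median size of a called difference was 0.61. In bulk RNA, fewer cells expressing a gene and less RNA per cell cannot be told apart.

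The sequences below are printed because 5 of the 10 largest falls, IL6, CXCL8, CXCL1, CXCL5 and IL1B, are cytokine or chemokine genes known as NF-kB targets. Each run is the last 150 bases before the RefSeq transcription start on GRCh38.p14, written 5′ to 3′ on the gene's strand. Capitals mark the match to GGANNTTCC, a form of the NF-kB site, searched on both strands.
IL6, chr7:22727050-22727199, plus strand: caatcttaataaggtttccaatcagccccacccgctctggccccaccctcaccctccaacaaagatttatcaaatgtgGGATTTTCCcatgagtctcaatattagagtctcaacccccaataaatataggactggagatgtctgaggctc
CXCL8, chr4:73740419-73740568, plus strand: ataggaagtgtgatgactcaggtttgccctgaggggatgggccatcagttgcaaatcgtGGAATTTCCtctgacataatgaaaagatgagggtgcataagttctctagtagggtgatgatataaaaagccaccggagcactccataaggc
CXCL1, chr4:73869243-73869392, plus strand: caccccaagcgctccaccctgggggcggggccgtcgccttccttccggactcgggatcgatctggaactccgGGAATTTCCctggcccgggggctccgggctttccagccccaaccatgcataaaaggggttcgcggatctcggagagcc
CXCL5, chr4:73998678-73998827, minus strand: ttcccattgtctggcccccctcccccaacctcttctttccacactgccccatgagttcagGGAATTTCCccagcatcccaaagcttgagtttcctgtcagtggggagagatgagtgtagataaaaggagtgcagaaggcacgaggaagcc
IL1B, chr2:112836780-112836929, minus strand: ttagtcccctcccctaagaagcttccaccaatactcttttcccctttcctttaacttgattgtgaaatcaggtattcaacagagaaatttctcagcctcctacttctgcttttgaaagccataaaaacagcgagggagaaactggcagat
The match lay 72 to 64 bases before the start in IL6, 91 to 83 in CXCL8, 78 to 70 in CXCL1 and 90 to 82 in CXCL5. IL1B held no match in its last 250 bases before the start, so its run is all in lower case. Over the 250 bases before the start, 365 of the 9130 tested genes with a promoter in the RefSeq table held this motif (4%). Among called genes it was present in 26 of 364 that fell (7.14%) and in 7 of 412 that rose (1.7%). It was found in 6 of the 7 called-lower chemokines with a promoter entry and in 2 of 8 called-lower cytokines of the IL-1 and IL-6 lists. TGANTCA, an AP-1 site, was present in 4.49% of tested genes, 6.32% of those that fell and 5.58% of those that rose. CATTCC, the TEAD site, was present in 9.82%, 10.2% and 8.74% respectively. Among the same 7 chemokines, TGANTCA was found in 1 and CATTCC in 1. Among the same 8 cytokines, TGANTCA was found in 2, as many as held GGANNTTCC, and CATTCC in 0. A match of letters is a description of the sequence and was not tested as a site.

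Read totals over the listed genes were 12892442 to 21822152 in the 6 libraries, and the 10 most abundant genes took 7.16 to 7.98% of them. The lung fibroblast label was checked against 10 fibroblast markers, all of which were tested and none of which passed in limma, with 5 at an unadjusted p under 0.05, 0 called by edgeR and 4 called higher by DESeq2. Their summed level was 453201 to 563933 across the 6 libraries, against 285 to 353 for 7 epithelial markers. Levels of CDH5, CD3E and KRT5 were between 0 and 2.43, and PTPRC was between 2.13 and 8.90. The 6 endothelial markers summed to 2607 to 3723 in the NT3 libraries and 2059 to 2440 in the NT4 libraries. Of these, 3 were tested, with a median difference of -0.42. None passed in limma, while edgeR and DESeq2 each called 1 lower. Library NT3 replicate 3 stood apart. Its values deviated from the group mean with an SD of 0.318 over genes, against 0.162 to 0.218 in the other 5 libraries, and the first principal component, with 54.7% of the variance, placed it at -43.0 when the other NT3 libraries were at -8.12 and -3.67. The counts of calls depended on it and on other single libraries. They were 2624 without NT3 replicate 3 (23.3%, with 11.7% higher and 11.6% lower), 405 without NT3 replicate 1, 999 without NT3 replicate 2, 204 without NT4 replicate 1, 345 without NT4 replicate 2 and 195 without NT4 replicate 3. Of the 976 genes, 975 stayed called without NT3 replicate 3, and 175 stayed called in all 6 of these fits. With the spread estimated from all 7 groups, 3219 genes were called (28.6%), 970 of them among the 976.

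The deviation of NT3 replicate 3 moved with transcript length. Over 11207 genes matched to GENCODE v44, the difference of this library from the other NT3 libraries had a Spearman correlation of -0.58 with the length of the longest annotated transcript, given as a description across genes that share libraries. When genes were put in 10 equal bins by length, this library was, in the bin of shortest transcripts (median 1292 bases), higher by a median of 0.45 on the log2 scale, and in the bin of longest (median 10053 bases) the median difference was -0.47. The difference NT4 minus NT3 ran from -0.16 to 0.21 over the same bins with all 6 libraries, and from -0.03 to 0.06 without NT3 replicate 3. Genes called higher in NT4 had a median transcript length of 5067 bases, those called lower 3344 bases, and all matched genes 3990 bases. The part of transcript length in the differences of single genes was not tested.

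**Figure D1:**
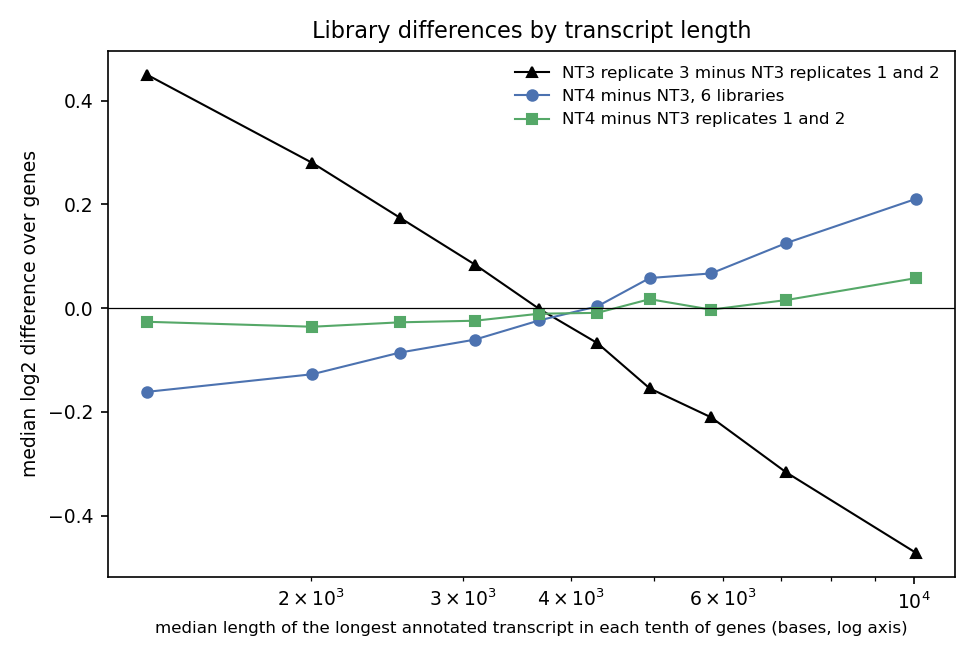
The vertical axis is the median log2 difference over genes and the horizontal axis the median length in bases (log axis) of the longest annotated transcript in each of 10 bins of genes. Triangles, for NT3 replicate 3 against the other NT3 libraries, run from 0.45 to -0.47, circles, for NT4 minus NT3, from -0.16 to 0.21, and squares, for the same difference without NT3 replicate 3, stay between -0.04 and 0.06.

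The rule for named genes took the 10 largest rises and 10 largest falls among called genes with no overlap between the groups' libraries and a higher-group mean above 483.9, the median gene mean. The rises were LAMA2, SLC14A1, NPTX1, TP53INP1, GPC6, SRD5A1, ETV1, APAF1, PIEZO2 and FBXO32, and the falls CXCL1, ANKRD1, IL6, CXCL5, IGFBP3, CYP1B1, CXCL8, IL1B, EDN1 and DIO2. Non-overlap by itself was common: 4000 of the genes tested (35.5%) had libraries that did not overlap, 18% with NT4 higher and 17.4% with NT4 lower, and all 976 called genes were among them. Of these 20 genes, 19 passed under all 19 alternatives that gave them a value. PIEZO2, which encodes a mechanosensitive ion channel, passed in 16 and missed the threshold without any 1 of the 3 NT4 libraries, where its adjusted p reached 0.0917. It read 449.5, 374 and 215 with NT3 and 839, 736 and 818 with NT4. SLC14A1, a urea transporter, read 135, 136 and 114.1 with NT3 and 516, 429 and 580.0 with NT4 (log2 difference 1.97, SE 0.14, adjusted p = 0.000743). ETV1, a transcription factor of the ETS family, read 312, 294 and 195 with NT3 and 667, 627 and 666 with NT4 (log2 difference 1.31, SE 0.17, adjusted p = 0.00344). NT3 replicate 3 was the lowest library at these 3 genes, and without it their differences were 0.96, 1.89 and 1.10.

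**Figure D2:**
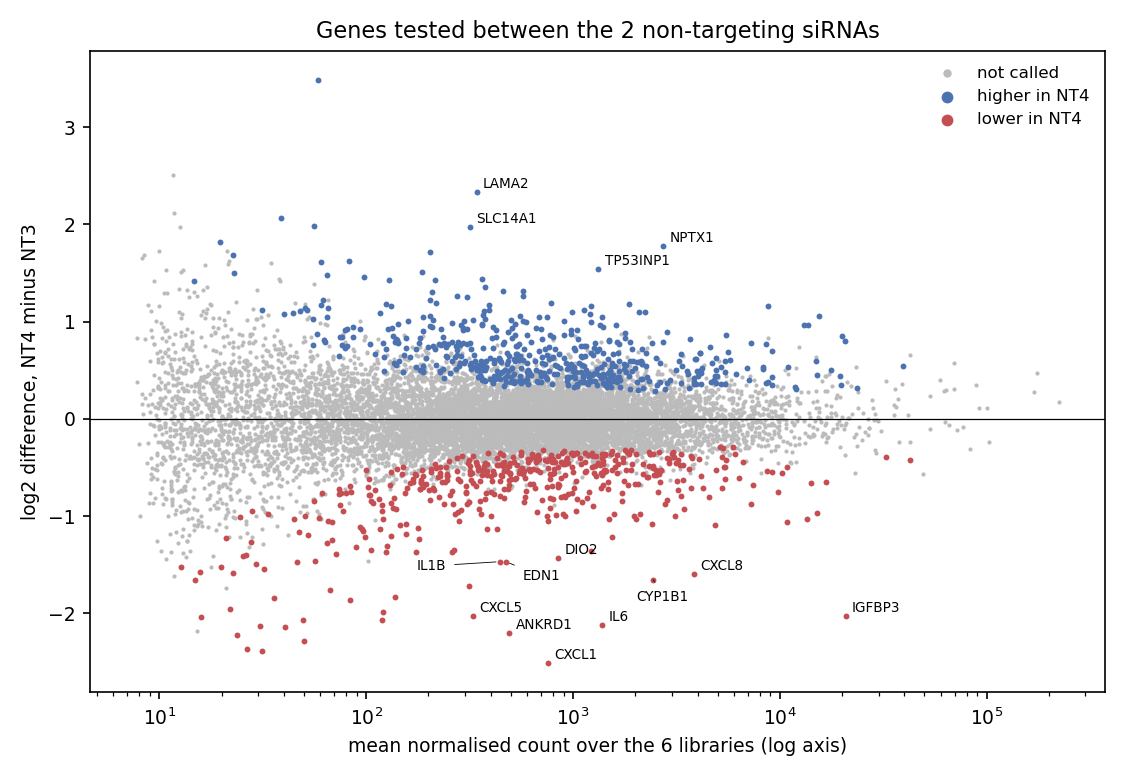
Each point is a gene, with the mean normalised count over the 6 libraries on the horizontal log axis and the log2 difference NT4 minus NT3 on the vertical axis. Blue points are the 516 genes called higher in NT4, red points the 460 called lower and grey points the rest, and the 4 largest rises and 10 largest falls of the naming rule carry their symbols, from LAMA2 at 2.34 to CXCL1 at -2.51.

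The cytokine list gave 9 falls (39.1%, against 4.08% of all genes) and no rise among 23 of its 25 members tested, with a median difference of -0.41 against -0.0092 over all genes. IL6, the cytokine that signals through gp130, read 1824, 1919 and 2993 normalised counts in the NT3 libraries and 408, 682 and 451 in the NT4 libraries (log2 difference -2.12, SE 0.23, adjusted p = 0.00232). Every NT3 library was higher than every NT4 library, and the lowest NT3 value was well over the highest NT4 value. IL1B, the secreted ligand of the IL-1 receptor, read 542, 638 and 774 with NT3 and 177, 299 and 237 with NT4 (log2 difference -1.47, SE 0.20, adjusted p = 0.00454). IL1A, its membrane-associated relative that acts upstream in the SASP, read 222, 265 and 241 with NT3 and 74.6, 140.1 and 129 with NT4 (log2 difference -1.13, SE 0.23, adjusted p = 0.0206). The groups did not overlap at either gene. Among receptors and their partners, IL1RAP, the co-receptor that IL-1 signalling needs, fell, with a log2 difference of -0.85, and so did OSMR, the receptor chain for oncostatin M, with -0.62.

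The growth factors of granulocytes and macrophages in this list were expressed at low levels. CSF2, which encodes GM-CSF, read 135, 152 and 294 with NT3 and 34.5, 58.4 and 38.5 with NT4 (log2 difference -2.07, SE 0.31, adjusted p = 0.0071). CSF3, which encodes G-CSF, read 59.2, 95.1 and 91.0 with NT3 and 11.1, 35.0 and 9.62 with NT4 (log2 difference -2.28, SE 0.45, adjusted p = 0.0195). The values of NT4 replicate 2 were the highest of its group at both genes and still under every NT3 value. IL11 and IL24, cytokines that also fell, differed by -0.86 and -0.78. LIF, a gp130 cytokine, did not pass at -0.41, adjusted p = 0.172, and neither did CSF1, the macrophage growth factor, at 0.20, adjusted p = 0.194. The list's median was -0.42 without NT3 replicate 3, when 11 members were called lower. IL6 and IL1B were the 2 of 9 members called in each of the 6 fits that left out 1 library. IL1A missed the threshold without NT3 replicate 1 or NT4 replicate 3, and CSF2, CSF3 and IL11 missed it without NT4 replicate 1 or 3. OSMR passed only in the fits without NT3 replicate 2 or 3, and IL1RAP and IL24 only in the fit without NT3 replicate 3.

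Chemokines had the largest median difference of the 24 lists, -1.54, with 8 falls (57.1%) and 1 rise (7.14%) among 14 of 21 members tested. Of all genes, 4.08% fell and 4.58% rose. CXCL8, the main neutrophil attractant of the SASP, read 5131, 5495 and 6662 with NT3 and 1601, 2583 and 1640 with NT4 (log2 difference -1.60, SE 0.19, adjusted p = 0.00259). CXCL1 read 1081, 1007 and 1763 with NT3 and 185, 333 and 165 with NT4 (log2 difference -2.51, SE 0.29, adjusted p = 0.00244). CXCL5, a further ligand of the receptor CXCR2, read 495, 559.7 and 516 with NT3 and 101.3, 172 and 117.3 with NT4 (log2 difference -2.03, SE 0.19, adjusted p = 0.00147). All NT3 libraries were above all NT4 libraries at these genes, and NT4 replicate 2 was the highest NT4 library at each. The close relatives CXCL2, CXCL3 and CXCL6 fell, with log2 differences of -1.98, -1.83 and -2.14, and reads shared by these similar genes make the single values uncertain. CCL20, the ligand of CCR6, and CXCL16, a membrane-bound chemokine, fell, with -1.87 and -1.49.

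CXCL12, the stromal ligand of CXCR4, rose, from 76.8, 79.5 and 74.0 with NT3 to 120.2, 124 and 155 with NT4 (log2 difference 0.77, SE 0.15, adjusted p = 0.0182). CCL2, the monocyte attractant, read 2324, 1903 and 3028 with NT3 and 1446, 1948 and 1477 with NT4 and did not pass (log2 difference -0.56, SE 0.18, adjusted p = 0.0906). Its groups overlapped at NT3 replicate 2 and NT4 replicate 2. CXCL10, an interferon-inducible chemokine, did not overlap between groups and did not pass (log2 difference -0.88, SE 0.24, adjusted p = 0.0586). Without NT3 replicate 3 the median of the list was -1.35 and 10 members were called lower. CXCL1, CXCL2, CXCL3, CXCL5, CXCL6 and CXCL8 were called in all 6 fits that left out 1 library. CCL20 missed the threshold without NT4 replicate 1 or 3, CXCL16 without any 1 of the NT4 libraries, and CXCL12 without NT3 replicate 1 or any 1 of the NT4 libraries.

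**Figure D3:**
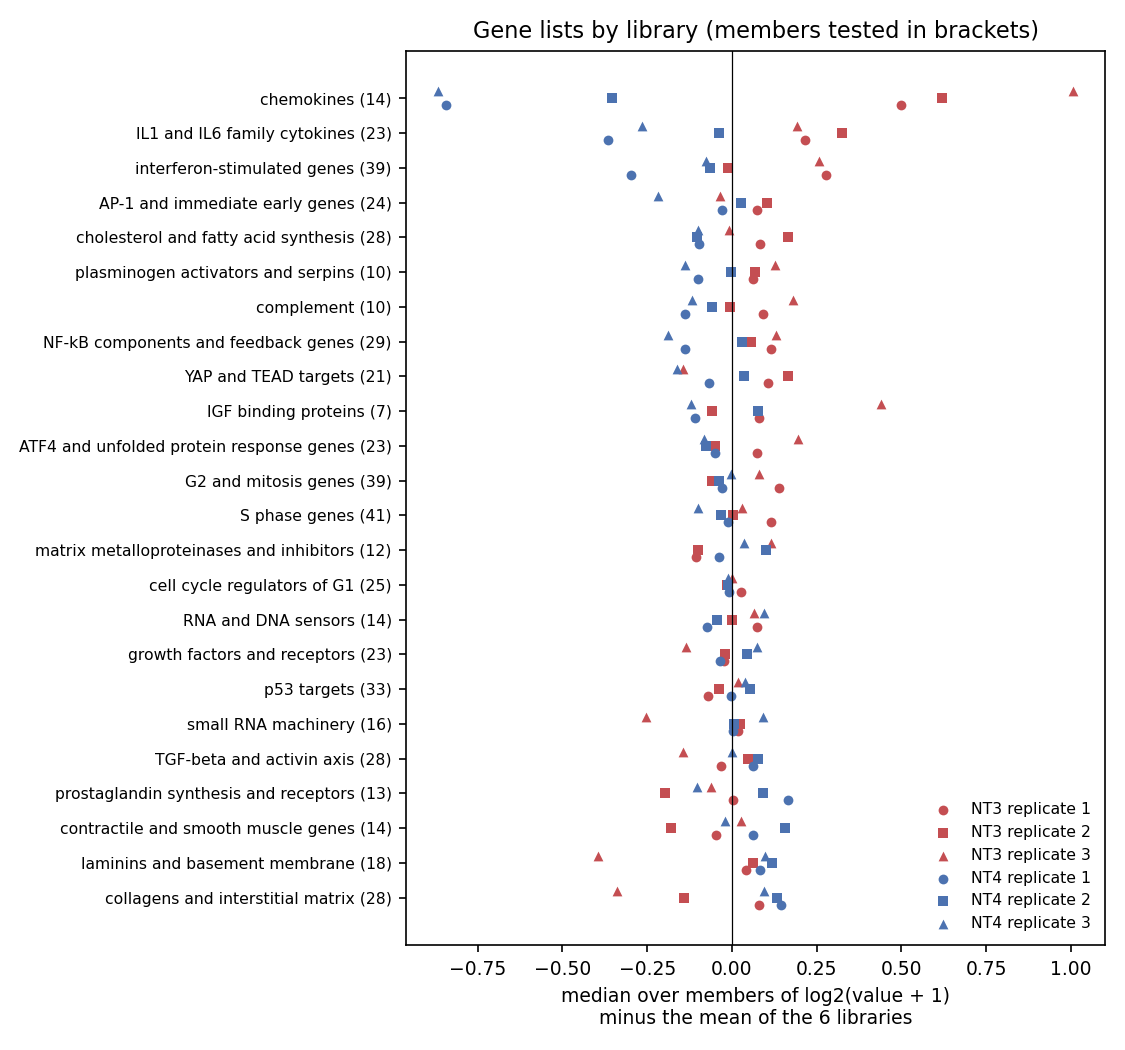
Each row is a gene list with the number of tested members in brackets, and each symbol is 1 library: red for NT3, blue for NT4, circles, squares and triangles for replicates 1, 2 and 3. The horizontal axis is the median over members of log2(value + 1) minus the mean of the 6 libraries, and the chemokines at the edge of the plot run from 0.50 to 1.01 in NT3 and from -0.87 to -0.35 in NT4.

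Genes that carry the NF-kB signal had smaller differences. Of 29 tested components and feedback genes, 5 fell (17.2%) and 2 rose (6.9%), against 4.08% and 4.58% of all genes. The list median was -0.16. PTGS2, the inducible cyclooxygenase, read 1977, 2262 and 1751 with NT3 and 1008, 989.7 and 929 with NT4 (log2 difference -1.03, SE 0.11, adjusted p = 0.00198), and its groups did not overlap. ICAM1, an adhesion receptor, TNFAIP2, TNIP1, an inhibitor of the pathway, and IRAK2, a kinase of IL-1 receptor signalling, fell, with log2 differences of -0.51, -0.45, -0.50 and -0.44. ICAM1 was not called by edgeR, with no filter or with a prior variance without trend. The deubiquitinase CYLD and the kinase IRAK1 rose by 0.38 and 0.35. The inhibitors NFKBIA and TNFAIP3, themselves induced by NF-kB, did not pass at -0.55, adjusted p = 0.0598 and -0.66, adjusted p = 0.0504. The subunit genes RELA and NFKB1 differed by -0.049 and -0.10 and did not pass. Without NT3 replicate 3, 11 members were called lower and 2 higher. Only PTGS2 of the 7 called members passed in all 6 fits that left out 1 library, and without NT4 replicate 1 or 3, or NT3 replicate 1, it was the sole member called.

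Interferon-stimulated genes, which cells switch on when sensors detect foreign or misplaced nucleic acid, were lower on balance. Of 39 of 42 members tested, 7 fell (17.9%) and 1 rose (2.56%), against 4.08% and 4.58% of all genes. Differences were below 0 at 32 of the 39, against 5798 of the 11271 genes tested, and the list median was -0.28. MX1, an antiviral GTPase, read 4791, 3499 and 5337 with NT3 and 1997, 2589 and 2528 with NT4 (log2 difference -0.92, SE 0.17, adjusted p = 0.0135). BST2, which tethers virions to the cell surface, read 372, 266 and 517 with NT3 and 165, 189 and 183 with NT4 (log2 difference -1.05, SE 0.22, adjusted p = 0.0213). Groups did not overlap at MX1 or BST2. RSAD2, an antiviral enzyme, the helicase DHX58, the oligoadenylate synthetase OAS2, IFI6 and the signal transducer STAT2 fell, with log2 differences of -0.98, -0.95, -0.70, -0.75 and -0.42. IFIT2 went the other way, from 1013, 701 and 824 with NT3 to 1242, 1514 and 1480 with NT4 (log2 difference 0.75, SE 0.14, adjusted p = 0.0174). Its neighbour in function IFIT1 read 4632, 3070 and 5880 with NT3 and 2744, 3289 and 3506 with NT4, overlapped and did not pass (log2 difference -0.47, SE 0.21, adjusted p = 0.206).

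Call counts in the interferon list rested on single libraries. They were 18 lower and 1 higher without NT3 replicate 3, 15 lower without NT3 replicate 2, 2 lower without NT4 replicate 2, and 0 lower without NT3 replicate 1, NT4 replicate 1 or NT4 replicate 3. The median was -0.26 without NT3 replicate 3. Of 14 tested RNA and DNA sensors, DHX58, which is on both lists, was the 1 called (7.14%, against 8.66% of all genes), a share near that of all genes. TLR3, the endosomal receptor for double-stranded RNA, read 39.4, 29.8 and 35.2 with NT3 and 30.0, 28.2 and 44.2 with NT4 (log2 difference -0.045, SE 0.25, adjusted p = 0.926). IFIH1, RIGI and EIF2AK2, cytosolic sensors of double-stranded RNA, differed by -0.25, 0.028 and 0.14 and did not pass. Of 16 tested genes of small RNA processing and loading, AGO2 was the 1 called (6.25%, against 8.66% of all genes). It read 1236, 1533 and 990.3 with NT3 and 1852, 1806 and 1861 with NT4 (log2 difference 0.58, SE 0.15, adjusted p = 0.0454). AGO2, the slicing Argonaute, missed the threshold without NT3 replicate 1 or any 1 of the NT4 libraries, and was not called by edgeR, with no filter or with a prior variance without trend. DICER1, the nuclease that makes mature microRNAs, did not pass (log2 difference 0.16, SE 0.18, adjusted p = 0.588) and differed by -0.065 without NT3 replicate 3.

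Among targets of YAP and TEAD, regulators that answer to cell shape and tension, 5 of 21 tested fell (23.8%) and 1 rose (4.76%). Of all genes, 4.08% fell and 4.58% rose. The list median was -0.15, with 10 differences above 0 and 11 below. ANKRD1, a nuclear ankyrin repeat protein, read 682, 858 and 888 with NT3 and 154, 206 and 165 with NT4 (log2 difference -2.20, SE 0.15, adjusted p = 0.000743). IGFBP3, which binds insulin-like growth factors outside the cell, read 33939, 28397 and 38064 with NT3 and 7376, 9319 and 7833 with NT4 (log2 difference -2.03, SE 0.13, adjusted p = 0.000743). CCN2, a matricellular protein, read 19766, 18198 and 16777 with NT3 and 9480, 9852 and 7522 with NT4 (log2 difference -1.03, SE 0.12, adjusted p = 0.00267). NT3 and NT4 values did not overlap at these genes, and IGFBP3 was the largest fall in absolute level among the named genes. CCN1 and the kinase NUAK2 fell, with -0.56 and -0.56. FOXF2, a transcription factor of mesenchymal cells, rose from 141, 129 and 125 with NT3 to 329, 282 and 297 with NT4 (log2 difference 1.19, SE 0.12, adjusted p = 0.00164). Without NT3 replicate 3, 9 members were called lower, 2 higher, and the median was -0.058. ANKRD1, IGFBP3, CCN2 and FOXF2 passed in all 6 fits that left out 1 library. CCN1 missed the threshold without NT4 replicate 3, and NUAK2 without NT3 replicate 1, NT4 replicate 1 or NT4 replicate 3. IGFBP3 was the 1 of 7 IGF binding proteins called (14.3%, against 8.66% of all genes). IGFBP5, the most abundant of them, did not pass (log2 difference 0.35, SE 0.15, adjusted p = 0.186).

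In the TGF-beta and activin axis 5 of 28 genes fell (17.9%) and 4 rose (14.3%), against 4.08% and 4.58% of all genes. The list median was 0.11. Among ligands, INHBA, the activin A subunit and a SASP factor, read 2799, 3584 and 3410 with NT3 and 1397, 1731 and 1483 with NT4 (log2 difference -1.08, SE 0.12, adjusted p = 0.00244). INHBB, the activin B subunit, and BMP2, a bone morphogenetic protein, fell, with -1.196 and -0.57. FST, the secreted antagonist of activin, fell with them, from 3790, 3498 and 5223 to 2047, 2159 and 1963 (log2 difference -0.999, SE 0.14, adjusted p = 0.00558). The receptor gene TGFBR1 fell, with -0.59, and the co-receptor gene TGFBR3 rose, with 0.51. The inhibitor SMAD6 read 51.9, 44.7 and 26.7 with NT3 and 131, 119.7 and 122 with NT4 (log2 difference 1.63, SE 0.24, adjusted p = 0.0067), and the target ID2 and the binding protein LTBP2 rose by 0.70 and 0.86, with LTBP2 at 0.65 without NT3 replicate 3. Groups did not overlap at INHBA, FST or SMAD6. INHBA, INHBB and FST passed in all 6 fits that left out 1 library, and SMAD6 missed the threshold without NT4 replicate 1 or 3. The 4 rises were 0 without NT4 replicate 1, 1 without NT4 replicate 2 or 3, 2 without NT3 replicate 1 and 10 without NT3 replicate 3, where 8 members were called lower.

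Matrix genes were higher on balance. Of 28 collagens and interstitial matrix genes 7 rose (25%, against 4.58% of all genes) and none fell, with a median of 0.27 that was 0.14 without NT3 replicate 3. POSTN, a matricellular protein, read 1515, 1428 and 1426 with NT3 and 2527, 2122 and 2583 with NT4 (log2 difference 0.72, SE 0.10, adjusted p = 0.00441). TNC, which encodes tenascin C, read 6325, 6243 and 3882 with NT3 and 11255, 12752 and 11948 with NT4 (log2 difference 1.16, SE 0.18, adjusted p = 0.00729). FBN1, the fibrillin of microfibrils, read 11141, 11524 and 5794 with NT3 and 17722, 16946 and 18517 with NT4 (log2 difference 0.97, SE 0.23, adjusted p = 0.0397). At TNC and FBN1, NT3 replicate 3 was the lowest library by far, and without it the differences were 0.93 and 0.64. The fibulins FBLN1 and FBLN2 rose by 0.75 and 0.92, the collagen chain gene COL5A2 by 0.44 and the proteoglycan gene BGN by 0.54. Of the most abundant chains, COL1A1 read 231786, 209967 and 186736 with NT3 and 241664, 239820 and 227238 with NT4 and did not pass (log2 difference 0.18, SE 0.12, adjusted p = 0.386).

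POSTN, FBLN1 and FBLN2 passed in all 6 fits that left out 1 library. TNC missed the threshold without NT4 replicate 3, BGN without any 1 of the NT4 libraries, and FBN1 and COL5A2 without NT3 replicate 1 or any 1 of the NT4 libraries. Without NT3 replicate 3, 11 members were called higher and 3 lower. Markers of other mesenchymal cells moved with this group. Of 6 pericyte and smooth muscle markers, 5 were tested, and RGS5 and CSPG4 rose by 0.73 and 0.55 (40%, against 4.58% of all genes). The summed level of the list was 2130 to 2958 in the NT3 libraries and 3703 to 3877 in the NT4 libraries. CD68, which fibroblasts with many lysosomes also express, rose by 0.55, and the summed level of the 8 leukocyte markers was 903 to 1019 with NT3 and 1293 to 1460 with NT4. All 3 leukocyte markers tested differed upward, with a median of 0.55, and CD68 was the 1 called. Groups did not overlap at 2 of them, which over all genes held at 18% with NT4 higher. PTPRC and CD3E were near 0 in all 6 libraries, as given above. The part of these markers in the matrix result was not tested. None of 14 tested contractile genes passed in limma or edgeR and 3 had an unadjusted p under 0.05, while DESeq2 called 1 higher and 1 lower, and limma without NT3 replicate 3 called 5 higher and 1 lower.

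Basement membrane genes included the largest rise of the naming rule. LAMA2 read 113.2, 149.7 and 81.3 with NT3 and 653, 487 and 569 with NT4 (log2 difference 2.34, SE 0.21, adjusted p = 0.00147), so that the lowest NT4 library was more than 3 times the highest NT3 library. COL18A1, the collagen that holds endostatin, read 2109, 1938 and 1938 with NT3 and 3847, 3777 and 3528 with NT4 (log2 difference 0.90, SE 0.082, adjusted p = 0.00147). The collagen chain gene COL4A6 and the laminin chain gene LAMA3 rose by 0.72 and 0.78. With NT3 replicate 3 left out, the differences of LAMA2, COL18A1, COL4A6 and LAMA3 were 2.1, 0.88, 0.59 and 0.63. These 4 were the members called higher among 18 tested (22.2%, against 4.58% of all genes), and the median was 0.18. Without NT3 replicate 3 the median was 0.10, and 5 members were called higher and 5 lower. HSPG2, which encodes perlecan and has a longest annotated transcript of 14341 bases, was lowest by far in NT3 replicate 3. It read 8383, 9160 and 2868 with NT3 and 10895, 10964 and 10434 with NT4 and did not pass (log2 difference 0.83, SE 0.38, adjusted p = 0.201), and the difference without NT3 replicate 3 was 0.30. LAMA2 and COL18A1 passed in all 6 fits that left out 1 library. COL4A6 missed the threshold without NT4 replicate 1 or 3, and LAMA3 without NT3 replicate 1 or any 1 of the NT4 libraries.

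Among proteases and their inhibitors, calls ran upward in the metalloproteinase list and mostly downward in the serpin list. Of 12 tested metalloproteinase and inhibitor genes 4 rose (33.3%, against 4.58% of all genes). These were MMP2, MMP16, TIMP2 and TIMP3, by 0.31, 0.99, 0.34 and 0.50. The list median was -0.045, with 6 differences above 0 and 6 below. The difference of MMP16, a membrane-bound protease, was 0.83 without NT3 replicate 3. MMP2 was not called with no filter or with median centring, nor TIMP2 with no filter or quantile normalization. TIMP3, a matrix-bound inhibitor, read 15624, 13615 and 14642 with NT3 and 20540, 21002 and 20397 with NT4 (log2 difference 0.50, SE 0.087, adjusted p = 0.0121). MMP1, the collagenase of the SASP, and MMP3, the stromelysin, did not pass at -0.22, adjusted p = 0.194 and -0.40, adjusted p = 0.116. Of 10 plasminogen activator and serpin genes, PLAU, SERPINB2, SERPINB7 and SERPINB8 fell, with log2 differences of -0.43, -0.55, -0.85 and -0.35. That was 40% of the list, against 4.08% of all genes, and the list median was -0.18. PLAU encodes urokinase, and SERPINB2 one of its inhibitors. PLAU was not called with a pseudocount of 10 or no filter, nor SERPINB8 with no filter. SERPINF1, which encodes the anti-angiogenic factor PEDF, rose from 121, 106.4 and 138 with NT3 to 309, 266 and 282 with NT4 (log2 difference 1.22, SE 0.14, adjusted p = 0.00238), with no overlap. SERPINF1 alone of these 9 genes passed in all 6 fits that left out 1 library. No metalloproteinase or inhibitor gene stayed higher without any 1 of the NT4 libraries. None of the 4 serpin list falls stayed without NT4 replicate 3, 1 without NT4 replicate 1, and 2 without NT3 replicate 1, NT3 replicate 2 or NT4 replicate 2.

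Prostaglandin genes gave 3 rises and 1 fall among 13 tested (30.8% called, against 8.66% of all genes). PTGS2 fell, as given above, while PTGS1, the constitutive cyclooxygenase, rose from 2277, 2091 and 1954 with NT3 to 3219, 3045 and 3166 with NT4 (log2 difference 0.58, SE 0.086, adjusted p = 0.00646). The receptor genes PTGER2 and PTGFR rose by 0.55 and 0.60. PTGS1 missed the threshold without NT4 replicate 1 or 3, PTGFR without NT3 replicate 1 or any 1 of the NT4 libraries, and PTGER2 passed only in the fit without NT3 replicate 3. Among 23 growth factor and receptor genes HGF, the hepatocyte growth factor, rose by 0.60 and ANGPTL4, a secreted inhibitor of lipoprotein lipase, fell, with -0.81. The called share of this list was 8.7%, near the 8.66% of all genes. EDN1, which encodes the vasoconstrictor endothelin-1, was named by the rule and read 655, 758 and 666 with NT3 and 277, 282 and 198 with NT4 (log2 difference -1.47, SE 0.15, adjusted p = 0.00179). CYP1B1, a cytochrome P450 that the aryl hydrocarbon receptor induces, read 3503, 4783 and 2908 with NT3 and 1070, 1205 and 1205 with NT4 (log2 difference -1.66, SE 0.17, adjusted p = 0.00164). DIO2, the deiodinase that activates thyroid hormone, read 1346, 1256 and 1102 with NT3 and 409.6, 475 and 489 with NT4 (log2 difference -1.43, SE 0.11, adjusted p = 0.000799). These 3 genes showed no overlap. C3, the central component of complement, fell, with -0.98, and so did SERPING1, the C1 inhibitor, with -0.36, among 10 complement genes tested. Of these 10, 20% were called, against 8.66% of all genes. C3 was not called with the spread shared by all 7 groups. HGF missed the threshold without NT4 replicate 3, ANGPTL4 and C3 without NT3 replicate 1, NT4 replicate 1 or NT4 replicate 3, and SERPING1 without NT3 replicate 1 or any 1 of the NT4 libraries.

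Among genes of the arrest, 12% of the G1 regulators and 7.32% of the S phase genes were called, against 8.66% of all genes. CDKN1A, which encodes the CDK inhibitor p21, read 28356, 29070 and 30843 with NT3 and 28151, 29924 and 29757 with NT4 (log2 difference -0.0068, SE 0.087, adjusted p = 0.97). CDKN2A, the p16 and ARF locus, read 209, 212 and 252 with NT3 and 228, 226 and 188 with NT4 (log2 difference -0.070, SE 0.13, adjusted p = 0.763). Groups overlapped at both. MKI67, a proliferation marker, and LMNB1, the lamin lost in senescence, did not pass at 0.077, adjusted p = 0.816 and -0.25, adjusted p = 0.424. None of 39 tested G2 and mitosis genes passed in limma or edgeR, 5 had an unadjusted p under 0.05 and DESeq2 called 1 lower, and the median was -0.12. Of 41 S phase genes, 30 had differences below 0, against 5798 of the 11271 genes tested. CDC6, a licensing factor, FEN1, a flap endonuclease, and MCM3, a helicase subunit, fell, with -0.66, -0.48 and -0.34. None of these 3 stayed called without NT3 replicate 1 or without any 1 of the NT4 libraries, and 7 were called lower without NT3 replicate 3.

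The genes that the study knocked down elsewhere were also compared, since both siRNAs serve as their controls. CCND1, which encodes cyclin D1, read 33969, 36692 and 25615 with NT3 and 44546, 48813 and 45546 with NT4 (log2 difference 0.54, SE 0.14, adjusted p = 0.0473). The groups did not overlap, and NT3 replicate 3 was the lowest. The difference was 0.39 without NT3 replicate 3, and the call was lost without NT3 replicate 1 or without any 1 of the NT4 libraries, and also with no filter, with quantile normalization and with a prior variance without trend. CDK4 and CDK6, the kinases that cyclin D1 activates, did not pass at 0.068, adjusted p = 0.673 and -0.21, adjusted p = 0.307. Among 25 G1 regulators, the pocket protein gene RBL1 rose by 0.58 and the kinase gene CDK2 fell, with -0.35, and of the 6 fits that left out 1 library RBL1 and CDK2 passed only in that without NT3 replicate 3.

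Of 33 p53 targets 5 rose (15.2%, against 4.58% of all genes) and none fell, with a median of 0.042. TP53INP1, a stress-induced p53 cofactor, read 699.7, 751 and 580.1 with NT3 and 2061, 1700 and 2167 with NT4 (log2 difference 1.54, SE 0.13, adjusted p = 0.00101), with no overlap. SESN1, a sestrin, the polymerase gene POLH and the TRAIL receptor genes TNFRSF10A and TNFRSF10D rose by 0.53, 0.47, 0.53 and 0.67. MDM2, the feedback inhibitor of p53, differed by 0.0015 and did not pass. APAF1, the apoptosome scaffold, was named by the rule and read 362, 345 and 279 with NT3 and 825, 718 and 912 with NT4 (log2 difference 1.31, SE 0.13, adjusted p = 0.00179). TP53INP1 was the 1 listed p53 target that passed in all 6 fits that left out 1 library, and it was the 1 target called without NT4 replicate 1 or 3. Without NT3 replicate 1, 2 were called, without NT4 replicate 2, 3, and without NT3 replicate 3, 7 higher and 1 lower.

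Of 28 genes of cholesterol and fatty acid synthesis 4 fell (14.3%) and 1 rose (3.57%), against 4.08% and 4.58% of all genes. The list median was -0.18. INSIG1, the sterol sensor partner, read 942, 1071 and 1127 with NT3 and 629.9, 671 and 661 with NT4 (log2 difference -0.67, SE 0.10, adjusted p = 0.00547), with no overlap. MVK, FDPS and MSMO1, enzymes of the pathway, fell, with -0.50, -0.40 and -0.46, and ACLY, which makes cytosolic acetyl-CoA, rose by 0.40. INSIG1 was the 1 member called in all 6 fits that left out 1 library, and the sole member called lower without NT3 replicate 1 or any 1 of the NT4 libraries. Without NT3 replicate 3, 14 members were called lower. Of 23 ATF4 and unfolded protein response genes the phosphatase subunit PPP1R15A fell, with -0.52, and of 24 immediate early genes ATF3 and DUSP1 fell, with -0.47 and -0.34, while KLF4 rose by 0.65. None of these 4 passed without NT4 replicate 1 or 3. The called share was 4.35% of the ATF4 and unfolded protein response genes and 12.5% of the immediate early genes, against 8.66% of all genes.

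The levels in the other irradiated groups place each control among cells that had the same irradiation and transfection. This is a description with no test, since the called genes were chosen for the gap between NT3 and NT4. At 529 of the 976 called genes (54.2%) all 3 NT3 libraries lay above or below all 15 other irradiated libraries, and at 158 (16.2%) all 3 NT4 libraries did so. Over all 11271 genes tested the same held at 1236 (11%) for NT3 and 441 (3.91%) for NT4. Among genes called higher the shares were 62.6% for NT3 and 9.69% for NT4, and among genes called lower 44.8% and 23.5%. NT3 libraries stood apart at 8 of 9 called chemokines, 6 of 9 called cytokines, 5 of 8 called interferon-stimulated genes and 5 of 7 called matrix genes, and NT4 libraries at 0, 1, 0 and 0 of them.

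APAF1 was 329 with NT3 on average, 818 with NT4, and 771 to 1122 in the 12 libraries with siRNA against cell cycle genes. GPC6, a cell surface glypican, was 198 with NT3, 529 with NT4 and 444 to 590.0 in those 12. SRD5A1, a steroid 5-alpha-reductase, was 209.9 with NT3, 537 with NT4 and 438 to 715 in those 12. At these genes NT3 was the low group and the NT4 mean lay within the range of the knockdown libraries. DIO2 was the reverse in direction, with 1235 for NT3, 458 for NT4 and 449.6 to 560.4 in the 12.

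NPTX1, a secreted pentraxin, was 4229 with NT4, 1247 with NT3 and 1162 to 2453 in the 12 libraries. FBXO32, a ubiquitin ligase subunit known from muscle wasting, was 1093 with NT4, 474 with NT3 and 377 to 695 in the 12. Here NT4 was the group that stood apart. At IGFBP3 the 12 libraries, 10792 to 21591, lay between the NT4 mean of 8176 and the NT3 mean of 33467. NT3 had the higher IL6 level of the controls, 2245 ± 649 (SD, n = 3) against 514 ± 147 with NT4. The means were 627 with CCND1 siRNA, 867 with CDK4 siRNA, 275 with CDK6 siRNA, 236 with both, and 74.9 in proliferating cells. For CXCL8 the means in that order were 5763, 1941, 1452, 3324, 409, 296 and 44.6. Both controls lay above proliferating cells at IL6 and CXCL8.

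**Figure D4:**
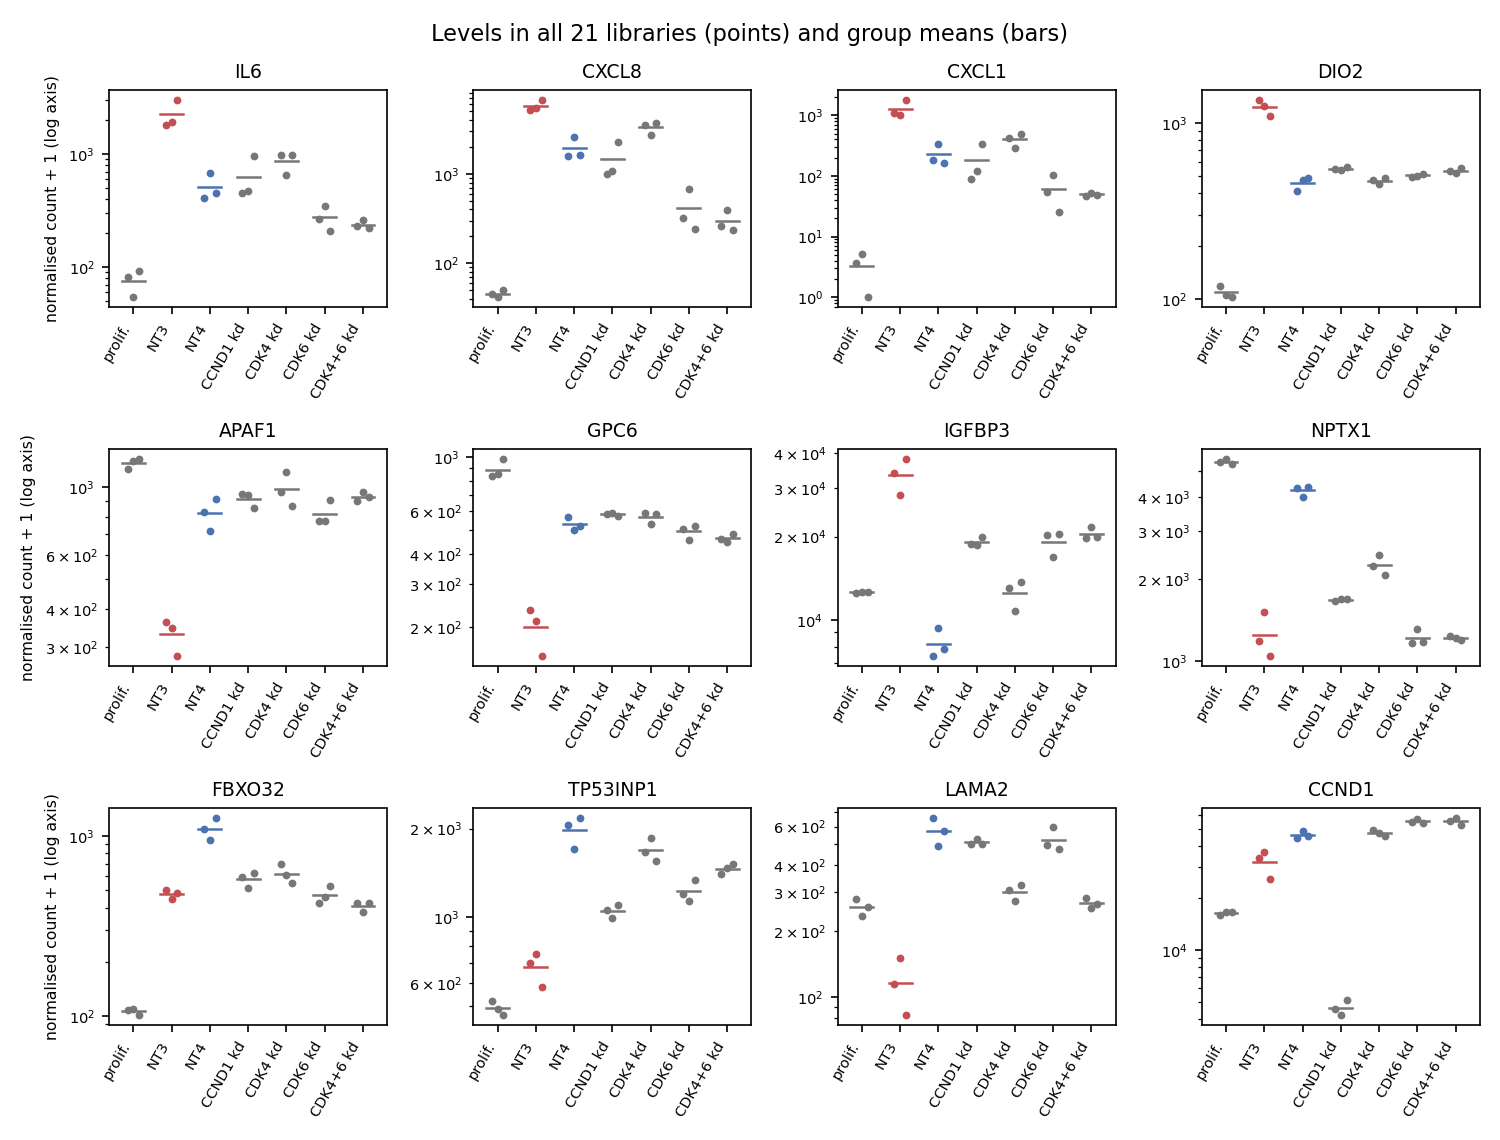
Each panel is a gene, each point a library of 1 of the 7 groups (kd, siRNA knockdown) and each bar a group mean, on a log axis of normalised count plus 1. NT3 is in red and NT4 in blue. IL6 and CXCL8 are highest in NT3, APAF1 and GPC6 lowest in NT3, and NPTX1 and FBXO32 highest in NT4 among the irradiated groups.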

How the data were processed

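The authors deposited 1 table of normalised counts, a signal that per the file headers carries the group and a library code for each column. Per the submitters' processing notes the tools were Trimmomatic 0.38.1, HISAT2 2.2.1, featureCounts 2.0.3, FastQC 0.74, MultiQC and DESeq2 2.11.40.8, and the build was hg38 (GRCh38). In each of the 6 libraries every value was a whole multiple of 1 step (100% within a tolerance of 0.02), so reads could be recovered for edgeR 4.0.16 and DESeq2 1.42.0. How strand, overlapping genes (CDKN2A and CDKN2B) or similar genes (CXCL1, CXCL2 and CXCL3, or metallothioneins) were counted is not given in the sources used here, so their values are uncertain. Replicate numbers follow the column order and are names only.

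Values were raised by a pseudocount of 1, put on the log2 scale and fitted for the 6 libraries with limma 3.58.1 in R 4.3.3 (trended variance, two-sided, Benjamini-Hochberg adjustment, threshold 0.05). An exact permutation test of 3 against 3 libraries has 20 splits and cannot give a p below 0.1, so none was run. Members and lists were chosen with earlier results of these data known. Lists are therefore described by counts and medians with no test. Named genes were the 10 largest rises and falls described in the text, up to 6 members per list of largest absolute difference, and a panel of SASP, cell cycle and RNA sensing genes. Other list members that passed are named to account for the counts. Members outside this rule that did not pass (LIF, CSF1, CXCL10, RELA, NFKB1, RIGI, EIF2AK2, MDM2 and COL1A1) were added after their values were seen. Values of 2 list members are not reported here. The fits were tested on simulated counts with the same dispersion for all genes and no library that stood apart. That simulation cannot show how the fits behave with a library such as NT3 replicate 3. Alternatives are given in the closing section.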

Additional observations from a re-analysis of the deposited data

How the results depend on the processing

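The 976 calls of the 6-library fit were 968 and 1003 with pseudocounts of 0.1 and 10, 816 with no filter, 907 with a mean of 100 or more, 969 with median centring, 1000 with quantile normalization, 667 with a prior variance without trend and 990 with edgeR. They were 3219 with the spread shared by all 7 groups, 2960 with that of the 6 irradiated groups, 1474 with DESeq2 and 5733 with array weights, whose estimate stopped before convergence and put a weight of 44.6 on 1 library, NT3 replicate 1, and 0.0768 on NT3 replicate 3. With an absolute log2 difference over 1 they were 154. Leaving out 1 library gave 195 to 2624. Such fits test fewer samples; otherwise the cause was not tested. The columns carry no replicate number, so a replicate block was built, after seeing the data, from runs of library codes in the headers and gave 443 calls, 438 of them among the 976. Deviations of the libraries so paired correlated at -0.14, 0.01 and -0.14. The deviations of NT3 replicate 3 correlated at -0.74 and -0.82 with those of the other NT3 libraries. Since that library dominates the deviations of its group, these values cannot tell whether the codes pair the libraries.

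No called gene among the named ones changed sign. A prior variance without trend ended the calls of ATF3, BST2, CDC6, FBN1, FDPS, FEN1, IFI6, LAMA3, MMP2, MSMO1, NUAK2, PLAU, POLH, PPP1R15A, PTGER2, RSAD2, SERPINB8, SERPING1 and TIMP2, besides AGO2, CCND1 and ICAM1, and no filter those of PTGER2 and RBL1 besides AGO2, CCND1, ICAM1, MMP2, PLAU, SERPINB8 and TIMP2. Signs reversed at 8 genes that were not called. CDKN1A was 0.052 with quantile normalization, 0.043 with array weights, and -0.033 to 0.028 with 1 library left out. CDKN2A was 0.029 with array weights and -0.12 to 0.022 with 1 library left out. MKI67 was -0.23 with array weights and -0.16 to 0.23 with 1 library left out. DICER1 was -0.00032 and -0.065 to 0.31 likewise. TLR3 was -0.24 to 0.075, and TNFRSF10C -0.038 to 0.69, with 1 library left out. ACACA and PTGIS were -0.16 and -0.33 with array weights. Values of fewer than 10 reads in a library, as at ACACA, carry large counting error.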

Other observations

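The genes given here were picked after their values were seen and lie outside the lists. Of the metallothionein genes given here, which encode small proteins that bind zinc and copper, 6 fell. MT2A, the most abundant, read 17456, 17741 and 25039 normalised counts in the NT3 libraries and 9865, 11996 and 8660 in the NT4 libraries (log2 difference -0.97, SE 0.17, adjusted p = 0.0114, limma). MT1E read 1511, 1545 and 2216 with NT3 and 656, 805 and 584 with NT4 (log2 difference -1.36, SE 0.17, adjusted p = 0.00319). MT1X, MT1G, MT1F and MT1M also fell, with log2 differences of -1.72, -1.30, -2.39 and -2.04, and MT1A, at 2.43 to 13.4, did not pass (log2 difference 0.21). MT1L, a further member, did not pass either (log2 difference -0.53, adjusted p = 0.148). The groups did not overlap at the 6 genes that fell, whose sequences are alike, so reads may be shared between them.

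A few genes known as targets of the aryl hydrocarbon receptor are given as values only. CYP1A1 fell: it read 89.8 to 114.2 with NT3 and 28.9 to 56.8 with NT4 (log2 difference -1.39, SE 0.26, adjusted p = 0.0153), as CYP1B1 did. AHRR, the repressor that the receptor induces, rose from 658, 674 and 478 to 1268, 1139 and 1200 (log2 difference 1.01, SE 0.14, adjusted p = 0.00454). TIPARP, a further target, read 1698, 2268 and 1657 with NT3 and 2074, 2045 and 1880 with NT4, overlapped and did not pass (log2 difference 0.11, SE 0.13, adjusted p = 0.619). NQO1, a quinone reductase that is also a target, read 2285, 2306 and 3110 with NT3 and 1802, 1878 and 1947 with NT4, did not overlap and did not pass (log2 difference -0.44, SE 0.13, adjusted p = 0.0665).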
